A study of Mus musculus with 168 samples.

Results

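Sorted macrophages labelled as spleen, from mice given the JAK inhibitor SB00526222 over 14 treatments, were compared with those of mice given vehicle. The comparison holds 15 of the 168 arrays of the series, 7 of SB00526222 and 8 of vehicle, chosen by their labelled tissue, cell type, compound and number of treatments. All animals were 6-week-old male C57BL/6 mice dosed by gavage, and cells bearing the macrophage surface antigen encoded by Adgre1 were sorted into TriZol and measured on Affymetrix Mouse Gene 1.0 ST arrays. The SB00526222 arrays had 14 treatments each, with cells taken 14 h (2 arrays), 15 h (3 arrays) or 17 h (2 arrays) after the last one. The vehicle was 0.5% MC without a stated pH, with 14 treatments on 6 arrays and 15 treatments on 2 arrays, taken 14 to 17 h after the last. Arrays came from the experiments named J2, J3, J6 and J8 in the titles. SB00526222 had 1, 3, 0 and 3 arrays in them, and vehicle had 1, 2, 2 and 3. The compound is known here only by its code, and no dose is given in the labels.

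Janus kinases sit on the inner side of cytokine receptors and, once a cytokine binds, phosphorylate STAT transcription factors. In macrophages a low tonic stream of type I interferon, acting through JAK1 and TYK2, keeps antiviral genes at a standing level. Interleukins and growth factors that use JAK1, JAK2 or JAK3 also bear on the activation and division of macrophages.

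The sorted cells carried macrophage transcripts, and single genes of other cell types were low. Levels are log2 of the deposited intensity, on which 1 unit is a doubling. Over the 15 arrays Adgre1, the gene of the sorting antigen, ran from 12.45 to 12.83 and the colony-stimulating factor receptor gene Csf1r from 11.07 to 12.33. Flt3 of dendritic cells stayed at 6.41 or lower, Ncr1 of natural killer cells at 5.23 or lower, Ly6g of granulocytes at 5.74 or lower, Cd3e of T cells at 7.37 or lower and Cd79a of B cells at 7.54 or lower. Other markers were higher, and Cd209a of the dendritic cell list lay at 9.53 to 11.09 with SB00526222 and 9.21 to 10.36 with vehicle. Above the array median in at least 3 spleen macrophage arrays were 5 of 7 platelet, 3 of 9 B cell and 3 of 10 dendritic cell markers. For T cells this held for 1 of 7, for granulocytes for 1 of 10 and for natural killer cells for 0 of 10. The tissue label did not match the markers of splenic red pulp macrophages. Spic and Vcam1, which mark red pulp macrophages, were at 4.63 to 5.78 and 5.75 to 6.15, whereas Gata6 and Timd4, which mark large peritoneal macrophages, were at 10.03 to 11.42 and 10.75 to 11.42. Medians over the spleen-labelled and the peritoneal macrophage arrays of the series were close for Gata6 (11.22 and 11.24), Spic (5.15 and 5.11) and Vcam1 (6.01 and 6.08). For Timd4 they were 11.09 and 10.62. The tissue is called spleen below only because the labels do.

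SB00526222 replicate 5, from J8, stood apart from the other arrays. Its median correlation with the spleen macrophage arrays was 0.961, against 0.980 or more for the other 14 arrays of the comparison. It had the lowest Gata6 (10.03, next lowest in its group 11.26) and the lowest Jak1 (10.40, next lowest 10.97) of the 7. Its mean over 56 small RNA probe sets was 8.97, inside the 7.65 to 9.19 of the other 14 arrays, and its mean over 30 histone probe sets was 8.32, inside their 7.40 to 8.46. Its mean over the 8 macrophage markers was the lowest of the 15 arrays (11.29, lowest vehicle array 11.33), and its mean over the 25 large peritoneal macrophage genes was too (11.46). Marker means of other cell types were the highest of its group in 8 of 9 lists, and 5 of these 8 were above all vehicle arrays. They were 6.82 for B cells (highest other array of its group 6.75, highest vehicle array 6.86), 6.51 for T cells (6.29 and 6.44), 5.19 for natural killer cells (4.998 and 5.30) and 6.99 for dendritic cells (6.88 and 6.83). They were 6.196 for erythroid cells (6.17 and 6.25), 5.79 for mast cells and eosinophils (5.69 and 5.62), 8.03 for platelets (7.85 and 7.92) and 6.69 for mesothelial and stromal cells (6.45 and 6.62). The granulocyte mean of 6.00 was below that of replicate 6 (6.01). Vehicle replicate 1, the only vehicle array of J2, leaned the same way, with the next lowest correlation of the 15 arrays (0.980). It had the lowest vehicle means for the macrophage markers (11.33) and the large peritoneal macrophage genes (11.56). Its means were the highest of the vehicle arrays for every other cell type except T cells and the mast cell and eosinophil list. Every J2 difference below rests on this vehicle array. The part of these levels in the results was not tested. Counts that moved without SB00526222 replicate 5 are given below with and without it. Titles give each array a number of its own, but the labels do not say how the animals were housed or dosed, so the p-values speak only to the spread from array to array, which may be technical. In bulk RNA, fewer cells of a kind and less RNA per cell cannot be told apart.

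Only Ifi27l2a passed the test. This gene encodes a short hydrophobic protein induced by type I interferon (probe set 10402347), and it fell 2.16-fold with SB00526222. The SB00526222 arrays lay between 6.64 and 8.05 with a median of 7.33, and the vehicle arrays between 7.40 and 9.42 with a median of 8.49. The SB00526222 median was at a low level, below the 7.37 that Cd3e of T cells reached in the same arrays. The groups overlapped, with 4 of 7 SB00526222 arrays below all vehicle arrays and 7 of 8 vehicle arrays above all SB00526222 arrays. The low vehicle array, replicate 1 at 7.40, and the lowest SB00526222 array, replicate 1 at 6.64, were both from J2. Means were 7.42 ± 0.515 (SD, n = 7) with SB00526222 and 8.49 ± 0.563 (SD, n = 8) with vehicle. With experiments in the fit the difference was -1.11 on the log2 scale (SE 0.19, 95% interval -1.49 to -0.73, adjusted p = 0.0257 by limma), lower than the vehicle mean of its own experiment in 7 of 7 arrays. This was 1 of 11008 genes tested, or 0.00908%.

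An exact two-sided permutation test of Ifi27l2a, which shuffled the groups within J2, J3 and J8 over all 400 assignments, gave p = 0.0025, the smallest that these arrays can give. The gene was put to this test because it had passed in the same arrays, so this p is no independent evidence. Without SB00526222 replicate 5 the difference was -1.04 and the adjusted p 0.122, and 0 genes passed (856 at an unadjusted p under 0.05). The call was also lost when SB00526222 replicate 1, 3, 6 or 7 or vehicle replicate 3, 6, 7 or 8 was left out, with the difference between -1.14 and -0.98 in those fits and an adjusted p of 0.0524 to 0.157.

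**Figure D1:**
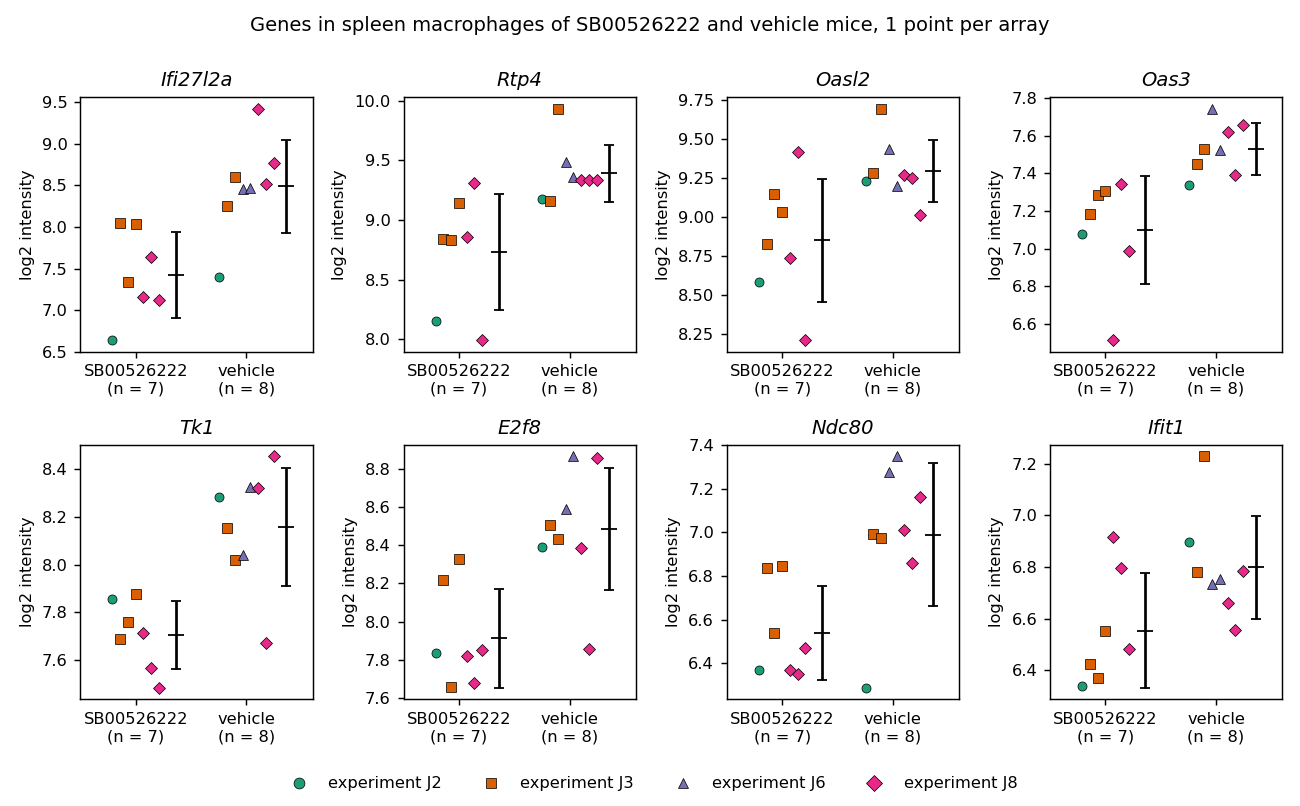
Log2 intensity (vertical axis) of 8 genes in each SB00526222 array (left, n = 7) and vehicle array (right, n = 8); colour and shape give the experiment, and the bar is the mean ± SD. For Ifi27l2a the SB00526222 arrays lie between 6.64 and 8.05 and 7 of 8 vehicle arrays lie above them, while for Oasl2 and Ifit1 only 2 and 1 of the 8 do.

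Short of the adjusted threshold, 229 genes (2.08%) had an unadjusted p under 0.05, 151 of them lower (1.37%) and 78 higher (0.709%). The median over all genes tested was 0.0098, and 45.5% of genes had a negative difference. Without replicate 5 that balance moved, to a median of 0.054 with 256 genes lower (2.33%) and 600 higher (5.45%) at an unadjusted p under 0.05. In 7 of 7 arrays 125 genes lay below the vehicle mean of the same experiment (1.14%) and 117 above it (1.06%). In only 1 gene (0.00908%) did every SB00526222 array lie below every vehicle array. This was Stag3, a cohesin subunit of meiotic cells, at a low level of 6.46 to 6.79 with SB00526222 and 6.80 to 6.97 with vehicle (difference -0.20, SE 0.07, adjusted p = 1.00). It was named after its values were seen.

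After Ifi27l2a, the 11 genes with the lowest moderated statistics were Oas3, Ndc80, Oasl2, Tk1, Rtp4, BC055324, Krtap10-4, Dck, Ccne1, E2f8 and Nek2, with differences from -0.75 to -0.23. All 11 had an adjusted p of 1.00. Of these, 3 belong to the interferon response, and Ndc80, Nek2, Tk1, Ccne1 and E2f8 act in cell division or in DNA synthesis. Dck, the kinase that salvages deoxycytidine for DNA synthesis, lay between 8.28 and 8.68 (median 8.38) with SB00526222 and between 8.33 and 9.11 (median 8.71) with vehicle. Krtap10-4, a keratin-associated protein gene, lay at 6.67 to 7.33 with SB00526222 and at 7.08 to 7.51 with vehicle, a difference of -0.27. Levels of Ndc80, BC055324, Krtap10-4 and Nek2 were low, at 7.51 or less, where Cd79a of B cells reached 7.54 in the same arrays.

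**Figure D2:**
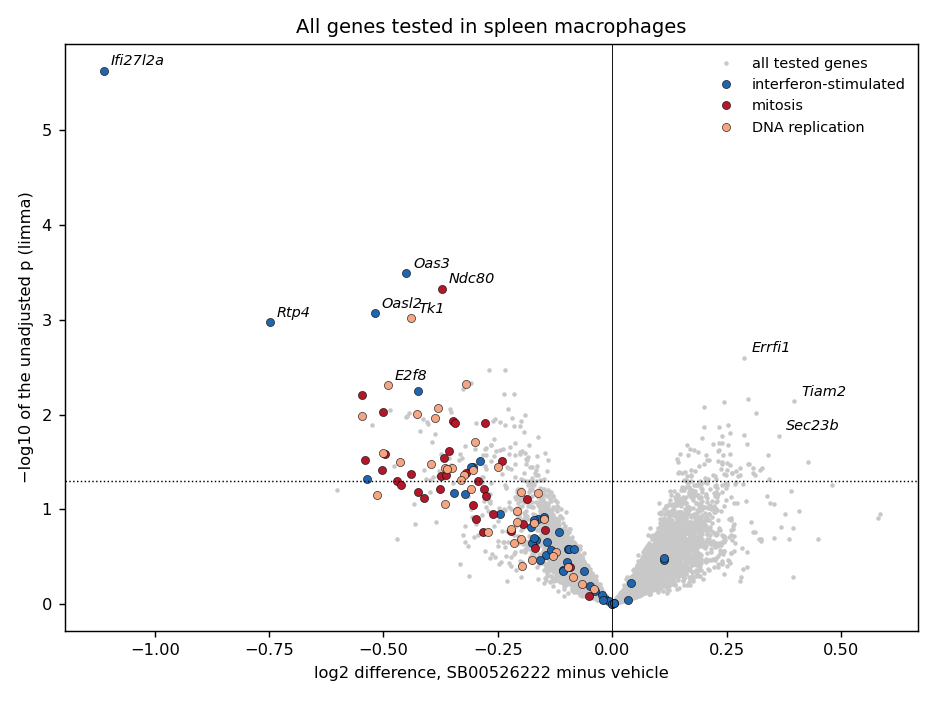
Each point is 1 of 11008 genes, with the log2 difference of SB00526222 minus vehicle on the horizontal axis and −log10 of the unadjusted limma p on the vertical axis; the dotted line is an unadjusted p of 0.05. Ifi27l2a stands alone at -1.11, and coloured members of the interferon-stimulated, mitosis and DNA replication lists lie mostly left of 0.

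Part of the interferon-stimulated genes lay lower with SB00526222. Of 55 genes in the list, 49 were on the array and 45 passed the filter on low values. Of those 45, 1 passed the adjusted threshold (0.00908% of all genes), 9 were lower at an unadjusted p under 0.05 and 0 were higher (1.37% of all genes were lower and 0.709% higher). The difference was negative for 39 of the 45, and their median was -0.13 (range -1.11 to 0.11) beside 0.0098 over all genes. Without replicate 5 the median was -0.05, with 33 negative, and 9 were again lower at an unadjusted p under 0.05. Without SB00526222 replicate 1 or 7 that count was 5. In 7 of 7 arrays 5 of the 45 members were lower, namely Ifi27l2a, Rtp4, Oas3, Slfn1 and Slfn5, beside 1.14% of all genes.

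Rtp4, an interferon-induced chaperone of membrane receptors, had the next largest difference of the list. It lay between 7.99 and 9.31 (median 8.84) with SB00526222 and between 9.16 and 9.93 (median 9.34) with vehicle. In 6 of 7 SB00526222 arrays it was below all vehicle arrays, and replicate 6 alone reached into the vehicle range. The difference was -0.75 (SE 0.20, 95% interval -1.17 to -0.33, adjusted p = 1.00), and it was -1.02 in J2, -0.61 in J3 and -0.61 in J8.

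The oligoadenylate synthetase family senses viral double-stranded RNA. Oas3 lay between 6.51 and 7.34 (median 7.18) with SB00526222 and between 7.34 and 7.74 (median 7.53) with vehicle, and 6 of 7 SB00526222 arrays were below all vehicle arrays. Its SB00526222 levels were low, all below the 7.37 that Cd3e of T cells reached. The Oas3 difference was -0.45 (SE 0.11), and -0.34 without replicate 5, which held the lowest value. Oas2 lay between 8.69 and 9.79 with SB00526222 and between 9.34 and 10.05 with vehicle (difference -0.42, SE 0.14). Oasl2, a further family member, lay between 8.21 and 9.42 (median 8.83) with SB00526222 and between 9.01 and 9.69 (median 9.26) with vehicle. Only 4 of its 7 SB00526222 arrays were below all vehicle arrays (difference -0.52, SE 0.14), and the difference was similar in J2 (-0.65), J3 (-0.49) and J8 (-0.39).

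The other members at an unadjusted p under 0.05 were Ifit1, Usp18, Xaf1 and Ifi205. Ifit1, which binds foreign RNA caps, lay between 6.34 and 6.92 (median 6.48) with SB00526222 and between 6.56 and 7.23 (median 6.77) with vehicle. These levels were low, below the 7.37 that Cd3e of T cells reached in the same arrays. The Ifit1 difference was -0.56 in J2 and -0.55 in J3, against 0.06 in J8. Usp18, which removes ISG15 from proteins and damps the interferon receptor, differed by -0.29 (SE 0.13), mostly in J8 (-0.43, against -0.07 in J2 and -0.04 in J3). Xaf1 differed by -0.31 (SE 0.14) and Ifi205, of the interferon-inducible p200 family, by -0.54 (SE 0.26). The difference of Ifi205 was -1.73 in the single pair of J2, -0.51 in J3 and -0.06 in J8.

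None of the factors named here that drive these genes had an unadjusted p under 0.05. Irf9, the DNA-binding partner of the STAT proteins that type I interferon activates, was at 9.17 to 9.77 with SB00526222 and 9.03 to 9.80 with vehicle (difference -0.10, SE 0.09). Stat2 differed by -0.11 (SE 0.14), and by 0.03 without replicate 5. Irf7, which amplifies interferon production, differed by -0.15 (SE 0.14) with opposite signs between experiments, at 0.36 in J2, 0.19 in J3 and -0.50 in J8.

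Promoters were read for the interferon-stimulated genes because their regulators bind a known element. RefSeq promoters of build GRCm38.p6, from 250 bases before the gene start to 50 bases after it, were available for 34 of the 45 members. The core of the interferon-stimulated response element, GAAA, any 2 bases and GAAA on either strand, was found in 15 of these 34 (44.1%), against 3.99% of the 27025 genes in the table and 3.63% of those tested here. The list holds genes known to be induced by interferon, so this share does not bear on SB00526222. Of the 9 members at an unadjusted p under 0.05, 5 had a promoter there and 3 held a match, namely Oas3, Ifit1 and Ifi205. Oasl2 and Xaf1 had a promoter without a match. The gamma-activated site, TTCNNNGAA, was in 0 of those 5 and in 9.55% of all genes. Both promoters below are shown because their genes carry this element and lay lower, and they run 5′ to 3′ on the strand of the gene with the matches in capitals. The match begins at position -75 from the gene start in Oas3, and the 2 matches in Ifit1 begin at -104 and -85.
Oas3, chr5:120777610-120777909, minus strand: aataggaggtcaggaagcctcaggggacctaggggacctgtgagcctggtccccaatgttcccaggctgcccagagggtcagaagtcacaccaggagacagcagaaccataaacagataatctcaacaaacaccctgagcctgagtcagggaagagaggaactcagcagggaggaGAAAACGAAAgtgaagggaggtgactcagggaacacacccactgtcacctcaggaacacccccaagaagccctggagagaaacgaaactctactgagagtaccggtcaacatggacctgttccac
Ifit1, chr19:34640639-34640938, plus strand: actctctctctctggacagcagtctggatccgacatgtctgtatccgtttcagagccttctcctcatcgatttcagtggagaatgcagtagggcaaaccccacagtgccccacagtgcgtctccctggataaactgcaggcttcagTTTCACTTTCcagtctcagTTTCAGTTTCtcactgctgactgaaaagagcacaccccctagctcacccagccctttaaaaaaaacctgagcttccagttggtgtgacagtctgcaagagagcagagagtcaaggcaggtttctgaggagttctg
A match is only a run of letters and does not show that a factor was bound.

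The kinases and their signalling partners showed no difference that passed. Of 18 JAK and STAT genes, 16 were tested, 0 had an unadjusted p under 0.05 in either direction and the median was 0.01. Without replicate 5 the median was 0.11, with 1 higher, beside 0.054 and 5.45% over all genes. Jak1 was at 10.40 to 11.11 (median 11.06) with SB00526222 and 10.72 to 11.16 (median 10.95) with vehicle, a difference of 0.04 (95% interval -0.18 to 0.26). Jak2 differed by 0.13 (95% interval -0.10 to 0.35) and Tyk2 by -0.04 (95% interval -0.35 to 0.26). Tyk2 was lowest in SB00526222 replicate 5 (8.10), and without that array its difference was 0.17. The feedback genes that STAT proteins induce had 10 of 12 members tested, 0 at an unadjusted p under 0.05 and a median of -0.07, or 0.04 without replicate 5. Among them Socs3, an inhibitor of JAK kinases, differed by -0.19 (SE 0.12) with -0.52 in J8 and 0.15 in J3, and Socs1 by -0.08 (SE 0.10). Of 19 receptor genes tested, Ifngr1, the ligand-binding chain of the interferon gamma receptor, was higher in 7 of 7 arrays at an unadjusted p of 0.0297 (difference 0.14, SE 0.06), and 2 receptor genes were higher at that threshold without replicate 5. Ifnar1, a chain of the type I interferon receptor, differed by 0.13 (SE 0.10).

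Genes of mitosis lay lower with SB00526222, though 0 passed the adjusted threshold. Of 41 genes, 35 were tested, 17 were lower at an unadjusted p under 0.05 (48.6%, beside 1.37% of all genes) and 0 were higher. All 35 tested members had a negative difference, from -0.55 to -0.05 with a median of -0.34. Without replicate 5 the median was -0.35, with 18 at an unadjusted p under 0.05. Such members numbered 6, 6 and 7 without SB00526222 replicates 3, 6 and 7, and 11, 10, 11 and 6 without vehicle replicates 1, 2, 5 and 8. All members are read on the same arrays, so their count is not that many separate observations. The mean over the 35 genes was 7.54 ± 0.355 (SD, n = 7) with SB00526222 and 7.99 ± 0.382 (SD, n = 8) with vehicle. It ran from 7.22 to 8.10 with SB00526222 and from 7.49 to 8.61 with vehicle, so the groups overlapped widely. The highest SB00526222 arrays were replicates 2 and 4 of J3, and the highest vehicle arrays were those of J6, where no SB00526222 array was made. The median difference of members was -0.32 in J2, -0.16 in J3 and -0.41 in J8, and without J6 it was -0.31 with 6 members at an unadjusted p under 0.05.

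Ndc80, a kinetochore protein that grips spindle microtubules, was the lowest of these by moderated statistic. It lay between 6.35 and 6.85 (median 6.47) with SB00526222 and between 6.29 and 7.35 (median 7.004) with vehicle. These are low levels, as Cd3e of T cells reached 7.37 in the same arrays. The vehicle array of J2 was the lowest of all 15, and the other 7 vehicle arrays were above all SB00526222 arrays. The difference was -0.37 (SE 0.09), with 0.08 in J2, -0.24 in J3 and -0.61 in J8. Anln, which anchors the contractile ring of dividing cells, lay between 7.14 and 8.33 (median 7.45) with SB00526222 and between 7.55 and 9.13 (median 8.28) with vehicle (difference -0.55, SE 0.18). Stmn1, which destabilises microtubules, differed by -0.50 (SE 0.18), Ccna2, the cyclin of late S phase, by -0.54 (SE 0.24) and the mitotic kinase gene Plk1 by -0.32 (SE 0.15). Ccnb2, a mitotic cyclin, lay between 8.98 and 10.23 with SB00526222 and between 9.33 and 10.84 with vehicle, and its difference of -0.42 had an unadjusted p of 0.0655. Nek2, a centrosome kinase, differed by -0.33 (SE 0.11).

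Genes of DNA replication followed the same direction. Of 43 genes, 39 were tested, 18 were lower at an unadjusted p under 0.05 (46.2%, beside 1.37% of all genes) and 0 were higher. All 39 differences were negative, from -0.55 to -0.04 with a median of -0.30, and without replicate 5 the median was -0.27 with 11 at an unadjusted p under 0.05. Such members numbered 9, 11 and 11 without SB00526222 replicates 3, 6 and 7, and 10, 11, 28 and 7 without vehicle replicates 2, 6, 7 and 8. The median was -0.07 in J2, -0.19 in J3 and -0.35 in J8. The mean over the 39 genes was 7.85 ± 0.171 (SD, n = 7) with SB00526222 and 8.18 ± 0.357 (SD, n = 8) with vehicle. It ran from 7.65 to 8.13 with SB00526222 and from 7.61 to 8.74 with vehicle. The lowest and the highest vehicle arrays, replicates 7 and 8, were both from J8. In 7 of 7 arrays 9 members were lower, namely Mcm3, Mcm6, Mcm10, Pcna, Tk1, Tyms, E2f7, E2f8 and Ccne1, beside 1.14% of all genes.

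Tk1, the kinase that salvages thymidine in S phase, lay between 7.49 and 7.88 (median 7.71) with SB00526222 and between 7.67 and 8.45 (median 8.22) with vehicle. All but 1 vehicle array, replicate 7, were above all SB00526222 arrays. The difference was -0.44 (SE 0.12), with -0.43 in J2, -0.31 in J3 and -0.56 in J8. A second Tk1 probe set gave group means of 7.49 with SB00526222 and 7.89 with vehicle. E2f8, a repressor among the E2F factors that is made in S phase, lay between 7.66 and 8.33 (median 7.84) with SB00526222 and between 7.86 and 8.87 (median 8.47) with vehicle, and 7 of 8 vehicle arrays were above all SB00526222 arrays (difference -0.49, SE 0.16). Ccne1, the cyclin that opens S phase, differed by -0.32 (SE 0.10) and Tyms, which makes thymidylate, by -0.38 (SE 0.13). Mcm6, a subunit of the replicative helicase, lay between 8.51 and 9.27 (median 8.99) with SB00526222 and between 8.67 and 10.18 (median 9.51) with vehicle (difference -0.43, SE 0.15). Its fellow subunit Mcm3 differed by -0.30 (SE 0.14), Mcm10 by -0.30 (SE 0.12), the sliding clamp gene Pcna by -0.20 (SE 0.10) and E2f7 by -0.15 (SE 0.09).

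Replication genes are classic targets of E2F factors, so their promoters were searched for TTTCGCGC or TTTGGCGC on either strand, a choice made after the list was seen to lie lower. Overlapping matches were each counted. Of the 39 members, 33 had a promoter in the table and 11 of them held a match (33.3%), against 0.929% of all 27025 genes and 1.83% of those tested here. In the mitosis list 1 of 30 did (3.33%). As the replication list holds classic targets, its share does not bear on SB00526222. Among the 18 members at an unadjusted p under 0.05, 15 had a promoter and 6 held a match, namely Mcm3, Mcm5, Mcm6, Mcm7, Lig1 and E2f2. The promoters of Mcm6, with 3 matches of which 2 overlap, and of Mcm3, with 1, are shown with the matches in capitals.
Mcm6, chr1:128359656-128359955, minus strand: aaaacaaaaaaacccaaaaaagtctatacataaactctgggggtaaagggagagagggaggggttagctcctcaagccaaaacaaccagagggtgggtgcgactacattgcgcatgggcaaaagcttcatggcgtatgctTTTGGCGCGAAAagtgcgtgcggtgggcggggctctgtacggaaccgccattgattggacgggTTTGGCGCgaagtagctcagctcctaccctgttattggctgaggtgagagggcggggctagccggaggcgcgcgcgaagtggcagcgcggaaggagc
Mcm3, chr1:20820263-20820562, minus strand: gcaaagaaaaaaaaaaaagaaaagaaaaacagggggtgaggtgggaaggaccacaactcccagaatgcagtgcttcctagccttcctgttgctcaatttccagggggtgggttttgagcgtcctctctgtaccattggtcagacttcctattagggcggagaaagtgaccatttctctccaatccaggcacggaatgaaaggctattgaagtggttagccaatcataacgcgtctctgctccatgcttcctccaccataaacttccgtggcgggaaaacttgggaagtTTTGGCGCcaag
The match in Mcm3 begins at base 39 of the gene, and the first in Mcm6 begins at position -110 from the gene start.

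**Figure D3:**
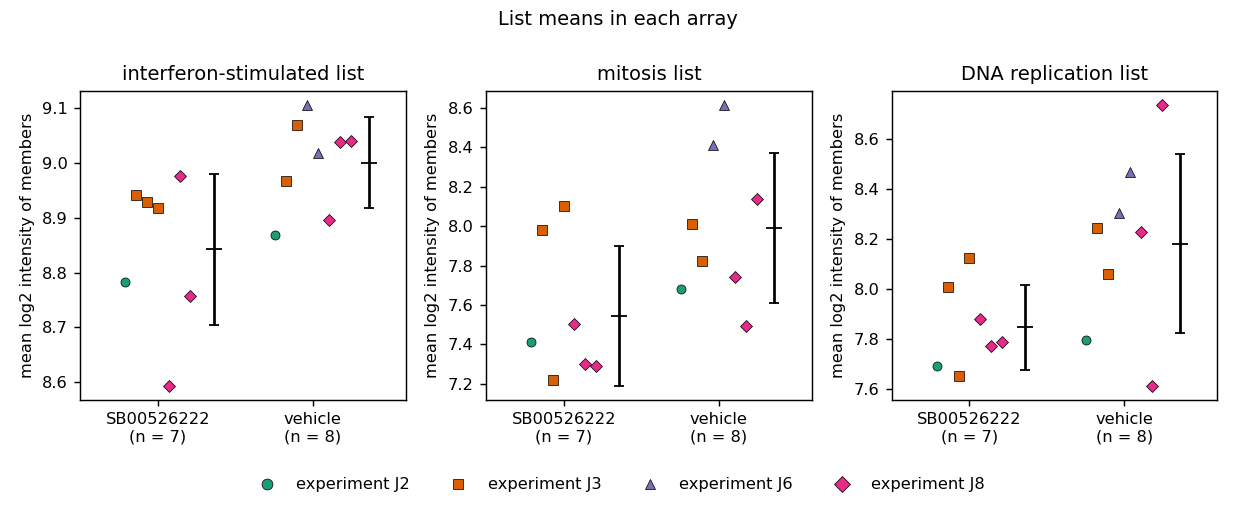
Mean log2 intensity over the tested members of 3 gene lists (vertical axis) in each SB00526222 array (left, n = 7) and vehicle array (right, n = 8), with colour and shape for the experiment and the bar for the mean ± SD. In each list the groups overlap, and for mitosis the 2 vehicle arrays of J6 are the highest of the 15.

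No gene passed in the upward direction. The 12 genes with the highest moderated statistics were Errfi1, Fastkd1, Tiam2, Syvn1, G6pd2, Tmem50b, Cpq, Tmem39a, Srp72, Shq1, Taf1a and Sec23b, with differences of 0.20 to 0.40 and adjusted p = 1.00 for each. Errfi1, a feedback inhibitor of the EGF receptor that glucocorticoids induce, lay between 8.63 and 8.83 (median 8.73) with SB00526222, against 8.04 to 8.72 (median 8.49) with vehicle. It was higher in 7 of 7 arrays (difference 0.29, SE 0.09). Tiam2, an activator of Rac, lay between 7.44 and 8.01 (median 7.78) with SB00526222 and between 6.79 and 7.78 (median 7.51) with vehicle. Its difference of 0.40 (SE 0.14) was 1.11 in the single pair of J2, 0.27 in J3 and 0.23 in J8. Sec23b, a coat protein of vesicles that leave the endoplasmic reticulum, lay between 9.67 and 10.44 with SB00526222 and between 9.32 and 10.13 with vehicle (difference 0.36, SE 0.14). Srp72, of the particle that brings nascent proteins to that organelle, differed by 0.23 (SE 0.09) and Syvn1, the ubiquitin ligase that clears misfolded proteins from it, by 0.24 (SE 0.08). Fastkd1, of a family that handles mitochondrial RNA, lay between 7.54 and 7.79 with SB00526222 and between 7.08 and 7.58 with vehicle (difference 0.30). Taf1a, of the factor that recruits RNA polymerase I, and Shq1, which helps assemble small nucleolar ribonucleoproteins, differed by 0.29 and 0.26. G6pd2 is a near copy of G6pdx, so its probe set may read both (difference 0.20).

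Chaperone and ribosome assembly genes were mostly positive, beside 6000 of all 11008 genes. Over all genes the median was 0.0098, and 0.709% were higher at an unadjusted p under 0.05. Of 14 heat shock chaperone genes tested, 13 had a positive difference, the median was 0.15 and 1 was higher at an unadjusted p under 0.05 (Hspa8, 12.78 to 13.15 with SB00526222 and 12.64 to 12.96 with vehicle, difference 0.15). Hsph1, its nucleotide exchange partner, differed by 0.39 (SE 0.20), with 0.96 in J2 and 0.13 in J8, and the mitochondrial chaperonin gene Hspd1 by 0.29 (SE 0.16). Of 24 ribosome biogenesis genes tested, 21 were positive with a median of 0.12, and Polr1b, a subunit of RNA polymerase I, had an unadjusted p of 0.0304 (difference 0.21). Without replicate 5 the ribosome median was 0.14, with 4 higher at an unadjusted p under 0.05, beside 0.054 and 5.45% over all genes. The chaperone median was then 0.135, with 1 higher. Nolc1, a nucleolar phosphoprotein, differed by 0.14 (SE 0.07).

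Genes of antigen presentation did not differ detectably. Of 13 MHC class II genes 9 were tested, 0 had an unadjusted p under 0.05 and the median was 0.02. H2-Aa, the class II alpha chain, lay between 9.20 and 10.59 (median 9.74) with SB00526222 and between 8.96 and 10.70 (median 10.04) with vehicle. Its difference in the fit was 0.05 (95% interval -0.36 to 0.46), while the means were 9.76 ± 0.430 (SD, n = 7) with SB00526222 and 9.95 ± 0.501 (SD, n = 8) with vehicle. The 2 vehicle arrays of J6, where no SB00526222 array was made, were the highest vehicle arrays for this gene. Cd74, the invariant chain of class II, differed by -0.001 (95% interval -0.38 to 0.38), and H2-Oa, a chain that modulates peptide loading, by 0.18 (SE 0.11). Of 16 class I and immunoproteasome genes tested, 0 had an unadjusted p under 0.05, with a median of -0.01. The interferon-induced GTPases had 5 of 14 tested, with 0 at an unadjusted p under 0.05, and among them Gbp3 differed by -0.06 and Irgm1 by -0.07.

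No macrophage identity or effector gene passed the adjusted threshold. The 25 large peritoneal macrophage genes had a median of 0.03 with 0 at an unadjusted p under 0.05, and without replicate 5 a median of 0.13 with 3 higher. In this set Gata6 differed by 0.09 (SE 0.16), and by 0.30 without replicate 5, and Cxcl13, a B cell attractant, by 0.14 (SE 0.09). Of 28 complement, scavenger and phagocytosis genes, 17 were positive with a median of 0.04 (0.10 without replicate 5, with 2 higher at an unadjusted p under 0.05), and Clec7a, a receptor of fungal glucans, differed by 0.23 (SE 0.12), Trem2 by 0.26 (SE 0.17) and C1qc by 0.19 (SE 0.12). Of 13 genes of STAT6-driven alternative activation, 12 were positive with a median of 0.08, and without replicate 5 the median was 0.12 with 2 higher at an unadjusted p under 0.05. The exception was Arg1, which breaks down arginine, at -0.24 (SE 0.19), while Irf4, a factor of that program, was at 0.15 (SE 0.11). Of 26 nucleic acid and Toll receptor genes, 2 were higher at an unadjusted p under 0.05 (7.69% of the list, beside 0.709% of all genes), and 3 without replicate 5. The 2 were Nlrp3, the inflammasome sensor (difference 0.25, SE 0.11), and Tlr13, the sensor of bacterial ribosomal RNA (difference 0.16, SE 0.07). Tlr7 differed by 0.15 (SE 0.09). Of 23 chemokine and cytokine genes, 14 were negative with a median of -0.04, and without replicate 5 it was again -0.04 with 1 lower at an unadjusted p under 0.05. The monocyte attractant gene Ccl2 lay between 6.56 and 7.43 with SB00526222 and between 6.86 and 8.33 with vehicle (difference -0.31, SE 0.17), and Il15 differed by -0.16 (SE 0.10). The respiratory chain, circadian clock, cholesterol synthesis, lipid handling, immediate early, STAT3, STAT5 and CSF1 lists had 0 members at an unadjusted p under 0.05. Without replicate 5 the cholesterol, lipid and STAT5 lists each had 1 higher, with medians of 0.15, 0.12 and 0.06, and the medians of the STAT3 and CSF1 lists were 0.08 and 0.13, against 0.01 and 0.04 with it. Without that array 600 of all genes were higher (5.45%), so upward counts in these lists stand against a larger background. Cd209a, of the list of small peritoneal macrophages, differed by 0.26 (SE 0.16) in a list with 0 members at that threshold, or 1 lower and 2 higher without replicate 5. The chaperone gene Calr differed by 0.13 (SE 0.12) and the squalene synthase gene Fdft1 by 0.19 (SE 0.11).

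**Figure D4:**
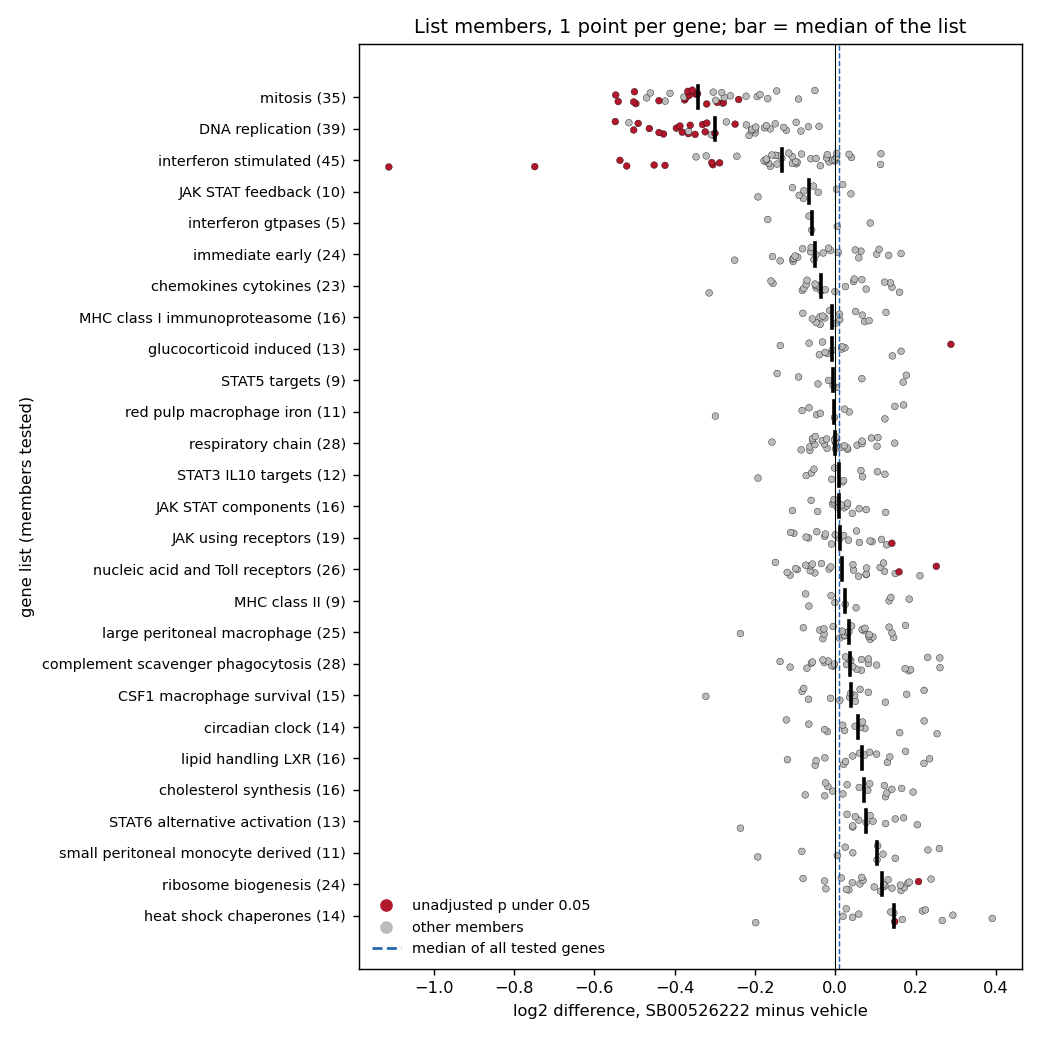
Log2 difference of SB00526222 minus vehicle (horizontal axis) for each tested member of each list (rows, with the number tested), with members at an unadjusted p under 0.05 in red, the list median as a black bar and the median of all genes as a dashed line. The mitosis and DNA replication lists lie wholly left of 0, at medians of -0.34 and -0.30, and the interferon-stimulated list has its median at -0.13 and a tail that reaches -1.11.

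The Ifi27l2a difference was estimated within each experiment. It was -0.76 in J2, with 1 array a group, -0.63 in J3 and -1.60 in J8. The J8 difference minus the J3 difference was -0.97 (SE 0.39, unadjusted p = 0.0211, adjusted p = 0.57 by limma). Across all genes that contrast called 0 of 11008, with 937 at an unadjusted p under 0.05 (8.51%), so the experiments were not shown to differ in any gene. That number depended on single arrays, at 189 without vehicle replicate 3, 452, 539 and 2299 without SB00526222 replicates 5, 2 and 7, and 1604 without vehicle replicate 2, with 0 called in each. Within J8 the hours were not balanced. At 14 h Ifi27l2a was 7.16 in the SB00526222 array and 9.42 and 8.77 in the vehicle arrays, and at 17 h it was 7.63 and 7.12 in the SB00526222 arrays and 8.51 in the vehicle array. The order was the same at both hours. With experiment and hour together as the block, the difference was -1.08 (adjusted p = 0.0523).

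SB00526221 and SB00526226, other inhibitors of the series, were set beside SB00526222 in the same macrophages. SB00526221 had 6 arrays, 3 of them from J6 with 15 treatments and the rest with 14, and SB00526226 had 4, all with 14 treatments. Vehicle arrays at pH 3 are on neither side of these contrasts, but they are among the 33 arrays of the fit. They thus inform its experiment terms and its spread. The vehicle of SB00526226 was taken to be the one at pH 3, so plain vehicle is not its own. Without the experiment term, Ifi27l2a had a mean of 7.82 in that vehicle (n = 3), 8.49 in plain vehicle and 7.95 with SB00526226 (n = 4). All 3 compounds were compared with the same plain vehicle arrays, so their differences from vehicle are not independent. Against vehicle, Ifi27l2a was at -1.11 (SE 0.19) with SB00526222, -1.40 (SE 0.20) with SB00526221 and -0.22 (SE 0.23) with SB00526226. Rtp4 was at -0.75, -1.16 and -0.14 in the same order, Oas3 at -0.45, -0.49 and -0.20, and Ifit1 at -0.30, -0.44 and -0.34. Among dividing-cell genes, Plk1 was at -0.32, -0.83 and -0.39, E2f8 at -0.49, -0.89 and -0.46, and Tk1 at -0.44, -0.58 and -0.34. The median of the mitosis list was -0.34, -0.71 and -0.30.

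The compounds were then tested directly against each other in 2 contrasts over all 11008 genes. SB00526222 minus SB00526221 called 0 genes, with 405 at an unadjusted p under 0.05 (3.68%), 351 of them higher (3.19%) and 54 lower (0.491%). The 405 became 1419 without SB00526222 replicate 5 and 270 without SB00526222 replicate 1. Class II genes were among the named genes that lay apart. H2-Aa was 1.16 higher with SB00526222 than with SB00526221 (95% interval 0.66 to 1.66, adjusted p = 0.286), and Cd74 was 0.94 higher (95% interval 0.47 to 1.40, adjusted p = 0.847). Plk1 was 0.51 higher (95% interval 0.14 to 0.88, adjusted p = 1.00). Ifi27l2a differed by 0.29 between them (95% interval -0.18 to 0.75), which leaves room for either compound to have the lower level. Without SB00526222 replicate 5 that contrast called 1 gene, the actin regulator gene Coro1a, and without SB00526221 replicate 1 it called 1, the kinase gene Map4k1. Both were higher with SB00526222 and were named after their values were seen.

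SB00526222 minus SB00526226 called 0 genes, with 210 at an unadjusted p under 0.05 (1.91%). SB00526226 replicate 1, the array with the next lowest median correlation (0.978), also stood apart, and the 210 became 93 without it. It became 473 without SB00526226 replicate 2, and 428 and 123 without SB00526222 replicates 5 and 1, with 0 called in each. Ifi27l2a was 0.89 lower with SB00526222 (difference -0.89, 95% interval -1.37 to -0.41, adjusted p = 1.00), and Rtp4 differed by -0.61 (95% interval -1.14 to -0.09) and Ndc80 by -0.33 (95% interval -0.57 to -0.09). Tk1 and E2f8 differed by -0.10 and -0.03, with intervals of -0.40 to 0.21 and -0.44 to 0.39. With all arrays, no gene was thus shown to respond differently to SB00526222 than to either of the others.

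**Figure D5:**
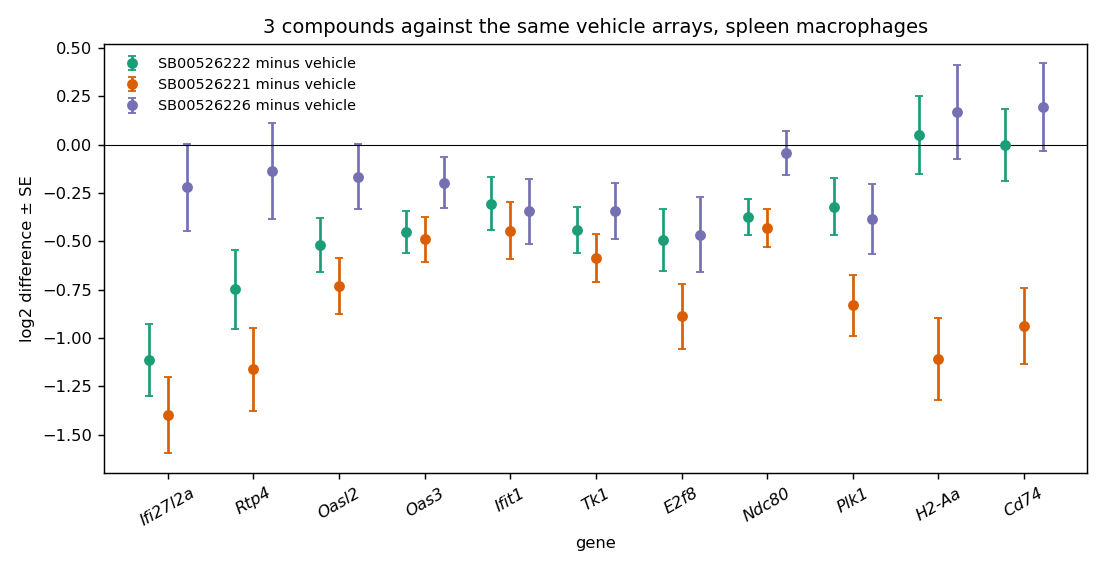
Log2 difference from the plain vehicle ± SE (vertical axis) of 11 genes in spleen macrophages for SB00526222, SB00526221 and SB00526226, from 1 fit that shares the vehicle arrays. Ifi27l2a lies at -1.11, -1.40 and -0.22, and H2-Aa at 0.05, -1.11 and 0.17.

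The same compound, at a like number of treatments, had also been run in other spleen cells of the series. Some CD4+ T cell arrays of both groups were taken later after the last treatment than any spleen macrophage array. In CD4+ T cells (T4, 6 SB00526222 and 7 vehicle arrays) Ifi27l2a differed by 0.03 (SE 0.19), and in dendritic cells (4 and 6 arrays) by -0.40 (SE 0.26). The macrophage difference minus the T4 difference was -1.14 for Ifi27l2a (SE 0.26, unadjusted p = 4.60e-05, adjusted p = 0.551). Against dendritic cells it was -0.71 (SE 0.30, adjusted p = 1.00). Oasl2 differed by -0.53 (SE 0.17) in T4, 0.01 from its value in macrophages. Tk1 in macrophages was 0.59 lower than in dendritic cells relative to vehicle (difference -0.59, SE 0.20, adjusted p = 1.00). Each contrast called 0 genes, over 11996 genes with T4 (183 at an unadjusted p under 0.05, 1.53%) and 11674 with dendritic cells (254, 2.18%), so no gene was shown to respond otherwise in the macrophages than in these cells. Peritoneal macrophages (2 SB00526222 and 2 vehicle arrays), natural killer cells (5 and 3) and granulocytes (3 and 5) were not tested. Peritoneal means with SB00526222 and vehicle were 7.96 and 8.36 for Ifi27l2a, 9.15 and 9.42 for Rtp4 and 7.93 and 9.19 for E2f8. They were higher with SB00526222 for Oas3 (7.74 and 7.30), Oas2 (9.79 and 9.52) and Usp18 (7.78 and 7.34). In the same order, Ifi27l2a was at 6.28 and 6.21 in natural killer cells and 8.82 and 8.96 in granulocytes.

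Across the 33 spleen macrophage arrays of all groups, with the experiment means removed, the genes whose levels followed Ifi27l2a most closely were Usp18 (Pearson's r = 0.751), Ndc80 (0.742), Kif22 (0.724), H1f5 (0.696) and Rtp4 (0.696). These coefficients describe 33 arrays that share treatments and RNA preparation. Group means were not removed, so the coefficients also hold differences between treatments. The closest genes thus included 2 of the interferon list, Usp18 and Rtp4, and Ndc80 of the mitosis list, beside the spindle motor gene Kif22 and the linker histone gene H1f5.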

How the data were processed

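RNA of sorted macrophages labelled as spleen was measured on Affymetrix Mouse Gene 1.0 ST arrays. The deposited values are linear intensities per probe set that the authors made with RMA in Affymetrix Power Tools, per the submitters' processing notes, which give no version. RMA sets all arrays to 1 distribution, so a shift of all genes together would not show. The 168 array medians were 119.5 to 142.3, and the number of arrays limits the precision. Log2 of the deposited intensity was taken. Of 24922 probe sets, 21425 had 1 gene symbol, 1399 had several and 2098 had none, and the probe set with the highest mean was kept for each of 19752 genes. Symbols were checked against RefSeq by gene identifier (21347 matched, 0 changed). Genes above the array median in at least 3 of the 33 spleen macrophage arrays were tested (11008).

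Limma 3.58.1 in R 4.3.3 fitted group and experiment over all 33 arrays (21 residual degrees of freedom), with Benjamini-Hochberg adjustment over all genes tested and a threshold of 0.05. Differences between cell types used the animal as a random block (statmod 1.5.0). The animal was read from the number in the title within each experiment. The correlation within animals was 0.005 with T4 and 0.178 with dendritic cells. No 2 arrays were identical (highest correlation 0.997). The procedure was tested on simulated data. Their errors were independent between genes and no array stood apart, so that test does not bear on how firm the Ifi27l2a call is.

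Named genes were those past the threshold, the 12 highest and 12 lowest by moderated statistic, the 3 largest of each list, fixed JAK, interferon and class II genes, and the 5 most correlated with Ifi27l2a. Not all genes that the rule names are described. Oas2, Usp18, Xaf1, Ifi205, Slfn1, Slfn5, Mcm3, Mcm6, Mcm10, Pcna, Tyms, E2f7, Ccna2, Ccnb2 and Stag3 were named after their values were seen. The groups compared, the members and the lists were chosen with earlier results of these data known. Alternatives covered the arrays and blocks in the fit, normalization, the filter, the probe set, array weights, the variance model and each array left out in turn.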

Additional observations from a re-analysis of the deposited data

Results flagged for a closer look

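Single arrays far from the rest of their group were looked for in 79 genes in both groups, by the gap to the nearest other array as a share of the group's whole range. Of 158 pairs of gene and group, 18 had such an array, and chance gives about 1 in 20. SB00526222 held 10 of the 18, of which 8 were at replicate 5, and vehicle held 8, of which 4 were at replicate 1. These genes share arrays, so the counts are not independent.

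SB00526222 replicate 5 was the lowest of its group in 8 genes. Gata6 was at 10.03 there and 11.26 in the nearest array (a share of 0.887), and Jak1 was at 10.40 there and 10.97 in the nearest (0.810). The shares were 0.691 for Stat3, 0.665 for C1qc, 0.640 for Stat2, 0.604 for Irf4, 0.589 for Tyk2 and 0.569 for Oas3. SB00526222 replicate 1 was the highest for Shq1 (8.35, nearest 7.70, share 0.707) and the lowest for Pcna (10.69, nearest 11.04, share 0.590).

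Vehicle replicate 1, the only vehicle array of J2, was the lowest for Tyk2 (8.42, nearest 9.20, share 0.769), Irf9 (9.03, nearest 9.53, share 0.648) and Ndc80 (6.29, nearest 6.86, share 0.536), and the highest for Tmem50b (11.43, nearest 10.83, share 0.586). Vehicle replicate 3 was the highest for Rtp4 (9.93, nearest 9.48, share 0.583) and the lowest for Cpq (share 0.563). Vehicle replicate 7 was the lowest for BC055324 (share 0.638) and vehicle replicate 6 for Cxcl13 (share 0.571).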

How the results depend on the processing

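The count of 1 gene, Ifi27l2a, became 0 with only the 15 arrays, with no experiment term, with experiment as a random block, with experiment and hour as the block, without J6, with each array centred on its median, without the arrays that stood apart, without J2 and without J8 (128 to 1352 genes at an unadjusted p under 0.05 in these fits). It was 1 in the 8 other alternatives, and 0 to 1 with single arrays left out. The Ifi27l2a difference was -1.38 (without J3) to -0.72 (without J8), with adjusted p from 0.0177 to 1.00, and -1.23 to -0.98 with single arrays left out (adjusted p 0.0112 to 0.157). Of 79 named genes, 69 kept their direction in 17 alternatives and 73 with each array left out, and 0 besides Ifi27l2a passed.

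Reversals follow, and the cause was not tested. With no experiment term H2-Aa was -0.20, and with a random block -0.080. With arrays centred Cd74 was 0.024. With array weights Stat2 was 0.011, Tyk2 0.11 and H2-Aa -0.13. Without the arrays that stood apart Irf7 was 0.018, Stat2 0.023, Tyk2 0.16 and Cd74 0.011. Without J2 Jak1 was -0.0011 and Cd74 0.13. Without J3 Jak1 was -0.026, H2-Aa -0.050, Cd74 0.0089 and Gata6 -0.047. Without J8 Irf7 was 0.15, Irf9 0.0065, Stat2 0.16, Tyk2 0.22, Socs3 0.070 and Cxcl13 -0.059. With single arrays left out the ranges were -0.23 to 0.020 for Irf7, -0.17 to 0.026 for Stat2, -0.12 to 0.17 for Tyk2, -0.075 to 0.12 for H2-Aa, -0.13 to 0.082 for Cd74 and -0.017 to 0.30 for Gata6.

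SB00526222 minus SB00526221 called 1 gene without the arrays that stood apart and 0 to 1 with single arrays left out. In settings added after seeing the data, members lower at an unadjusted p under 0.05 numbered 5 to 11 for interferon, 4 to 25 for mitosis (4 without J8) and 7 to 25 for replication, and 5 to 11, 6 to 24 and 7 to 28 with single arrays left out. No paired analysis was possible because the replicate numbers were given in accession order and pair no arrays.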
